A study of Mus musculus with 33 samples.

Results

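mmu-miR-21 is 1 of 650 miRNAs on an Agilent mouse miRNA array that was hybridised with lung RNA, and it was chosen by its name on the array, together with both probes that carry that name (2 of 1857 probes). The arrays came from female C57BL/6 mice, an inbred laboratory strain, that received a single instillation into the trachea. The exposed groups were dosed with 0.162 mg of Printex 90, carbon black in the form of nanoparticles, and control mice with the vehicle alone, 0.9% NaCl in MilliQ water with 10% v/v acellular bronchoalveolar lavage fluid, which also carried the particles. Lungs were taken at day 1, 3 or 28, which gave 6, 6 and 6 control arrays and 6, 4 and 5 exposed arrays at these days, 33 in all, each from 1 mouse per the series design. All mice carried the same strain background and no transgene is named. The question the comparison addresses is how pulmonary miRNA differs between particle-exposed and control lungs over time.

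MicroRNAs are short RNAs that lie in Argonaute proteins and lower the translation and stability of messenger RNAs that pair with their seed, the bases near the 5′ end. miR-21 is made from a hairpin whose gene overlaps the 3′ end of Vmp1, a gene of autophagy, and its transcription is known to be raised by AP-1, STAT3 and NF-kB and its processing by TGF-beta signalling. Known targets include Pdcd4, Spry1 and Smad7, and in lung the miRNA is known from macrophages, epithelium and the myofibroblasts of fibrotic tissue.

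The mature strand that the array name stands for is shown first, with the opposite arm and the related mouse miRNAs that could share a probe with it. Sequences are from RefSeq on build GRCm38.p6, they are written 5′ to 3′, and capitals mark the seed (bases 2 to 8).
mmu-miR-21a-5p: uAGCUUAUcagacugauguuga
mmu-miR-21a-3p: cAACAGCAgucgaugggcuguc
mmu-miR-21b: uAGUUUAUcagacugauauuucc
mmu-miR-21c: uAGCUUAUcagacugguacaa
The array names mmu-miR-21 and mmu-miR-21* were matched to miR-21a-5p and miR-21a-3p. The 5p strand lies at chr11:86584120-86584141 on the minus strand and the 3p strand at chr11:86584082-86584103, inside the annotated span of Vmp1 (chr11:86583858-86683836, minus strand). The hairpin ends 209 bases before the annotated end of that gene. In the hairpin of 92 bases, shown because both arms were on the array, capitals mark the arms.
Mir21a hairpin: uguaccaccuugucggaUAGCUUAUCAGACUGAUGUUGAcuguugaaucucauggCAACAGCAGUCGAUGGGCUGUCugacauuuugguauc
Of 1738 mature mouse miRNAs in RefSeq, 2 carry the seed AGCUUAU, miR-21a-5p and miR-21c. Counted from 1 at the 5′ end, miR-21b differs from miR-21a-5p by C4U, G18A, G21U and A22C, 4 of 22 compared bases. miR-21c shares the first 15 bases with miR-21a-5p and differs by A16G, G18A, U19C, U20A and G21A, 5 of 21 compared bases. Neither miR-21b nor miR-21c is a name on the array, and whether a probe for miR-21 also binds them was not tested.

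The arrays differed in brightness. The 75th percentile, taken over the 156 probes that every array detected, lay between 187 and 1211 units, with group medians of 365, 635 and 985 in controls and 666, 625 and 481 in exposed lungs at days 1, 3 and 28. Each array was scaled by this percentile, and a level below is the log2 of a probe's scaled signal. An array detected between 99 and 193 of the 611 mouse miRNAs. The 33 arrays lay on 9 slides scanned on 5 days. On every slide the controls had the position codes 1_1 and 1_2 and the exposed lungs 2_3 or 2_4, so position on the slide and exposure cannot be told apart. Slide 1, the sole slide of its scan day, stood apart in the miR-21 probes, as described below, and the results are given with and without its 4 arrays. Some miRNAs of main cell types of the labelled tissue were above background on all 33 arrays. They were the endothelial miR-126-3p, the epithelial miR-200a, miR-200b, miR-200c, miR-141 and miR-429, and the blood cell miR-142-3p and miR-223. No other tissue was compared, so they do not single out lung. Other markers of these types were not detected throughout: miR-126-5p was above background on 1 of 6 controls of day 1, miR-203 on 0 arrays in 3 of the 6 groups, miR-375 on 1 of 4 and 1 of 5 exposed arrays of days 3 and 28, and miR-205 on none.

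miR-21 was above background on 33 of 33 arrays with 2 probes of 10 spots each, and 0 of its spots were saturated. The brighter probe stands for the miRNA below. The opposite arm, mmu-miR-21*, the strand of the hairpin that is mostly degraded, was not well above background on any of the 33 arrays, so the level of that arm has only a bound and no change is given for it. Between 6 and 10 spots of the brighter probe entered an array's mean, and the SD of log2 signal over these spots had a median of 0.0998 (range 0.0525 to 0.375). The SD between the mice of a group was 0.11 to 0.75.

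miR-21 had a higher mean in exposed than in control lungs at each of the 3 days, by 1.33-fold at day 1, 1.21-fold at day 3 and 1.81-fold at day 28. None of these changes passed at an adjusted p under 0.05 over all tested miRNAs, and the exposed lungs of a day overlapped its controls each time.

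At day 1, miR-21 of the 6 control lungs lay between 11.54 and 12.32, with a median of 11.88. The 6 exposed lungs lay between 11.76 and 12.67, with a median of 12.40. The groups overlapped: 4 of 6 exposed lungs were above every control, 5 of 6 were above the control median, and the lowest exposed lung was the one on slide 1. As many exposed lungs above every control were found for 11 of 172 tested miRNAs at that day, 6.4%. The group means were 11.92 ± 0.27 (SD, n = 6) in controls and 12.33 ± 0.32 (SD, n = 6) after exposure, a log2 change of 0.41 ± 0.22 (SE; 95% interval -0.044 to 0.86), or 1.33-fold (0.970 to 1.82). The change did not pass in limma over 172 miRNAs (adjusted p = 0.487), where 0% of miRNAs passed and 16 had an unadjusted p under 0.05. The exact two-sided permutation test of miR-21 alone gave p = 0.0455, and 0.0682 after Benjamini-Hochberg adjustment over the 3 days.

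At day 3, the 6 control lungs lay between 11.52 and 12.40, with a median of 11.72. The 4 exposed lungs had levels of 11.38, 12.11, 12.37 and 12.42. The highest control and the lowest exposed lung were both on slide 1, and with them 1 of 4 exposed lungs was above every control, as for 30 of 172 miRNAs (17.4%). The means were 11.80 ± 0.31 (SD, n = 6) and 12.07 ± 0.48 (SD, n = 4), a log2 change of 0.27 ± 0.25 (SE; 95% interval -0.24 to 0.77), or 1.21-fold (0.849 to 1.71). It did not pass in limma (adjusted p = 0.996; 0% of 172 miRNAs passed and 2 had an unadjusted p under 0.05) or in the exact permutation test (p = 0.276, adjusted 0.276). Without the arrays of slide 1 the log2 change at day 3 was 0.62, with an adjusted p of 0.612 in limma, and that at day 1 was 0.60, with an adjusted p of 0.139. Over all alternative settings apart from single arrays left out, the limma adjusted p lay between 0.0536 and 0.491 at day 1 and between 0.0341 and 1.00 at day 3.

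At day 28, the 6 control lungs lay closest together, between 11.55 and 11.83 with a median of 11.66. The 5 exposed lungs had levels of 11.57, 12.25, 12.28, 13.01 and 13.50, the widest spread of the 6 groups. Of these, 4 of 5 were above every control and the lowest, replicate 12, lay within the control range, and 9 of 172 miRNAs (5.23%) had as many exposed lungs above every control. The means were 11.67 ± 0.11 (SD, n = 6) and 12.52 ± 0.75 (SD, n = 5), a log2 change of 0.85 ± 0.23 (SE; 95% interval 0.38 to 1.33), or 1.81-fold (1.30 to 2.51). miR-21 had the smallest p of the 172 miRNAs at this day, but did not pass after adjustment in limma (adjusted p = 0.157; 0% passed and 13 had an unadjusted p under 0.05). The exact permutation test gave p = 0.0216, adjusted 0.0649. Without replicate 12 the change was 1.09 (limma adjusted p = 0.00205) and without replicate 23, the highest lung, 0.61 (adjusted p = 0.728). No lung of day 28 lay on slide 1, and without that slide's arrays, which enter the shared spread, the change of 0.85 had a limma adjusted p of 0.0350 (0.000842 to 0.621 over the alternative settings other than single arrays). In whole lung, fewer or more cells of a type and less or more RNA per cell cannot be told apart.

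**Figure D1:**
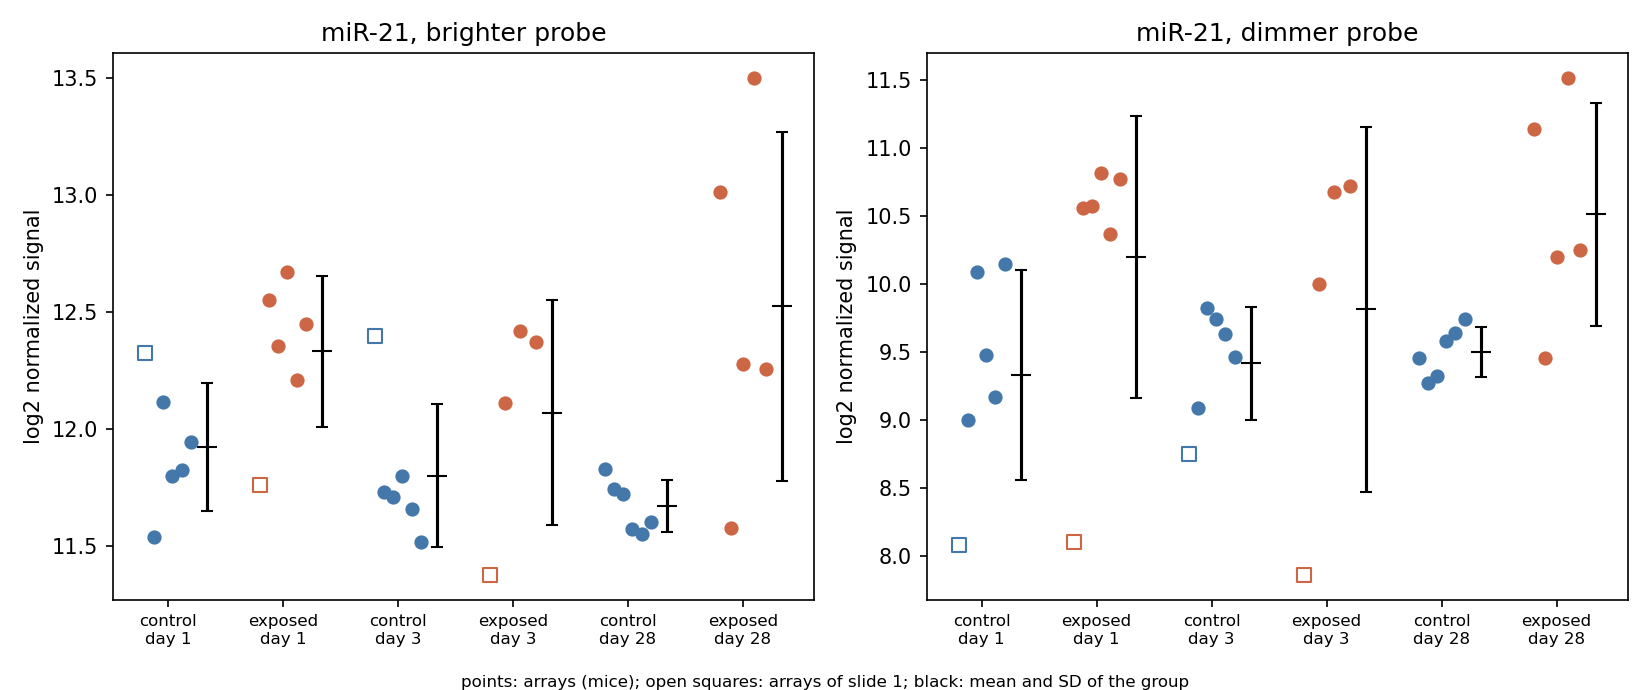
Log2 normalized signal of miR-21 on each array, by group, for the brighter probe (left) and the dimmer probe (right). Each point is 1 mouse, open squares are the 4 arrays of slide 1, and black marks are the group mean and SD. For the brighter probe, 4 of 6, 1 of 4 and 4 of 5 exposed lungs lie above every control of their day at days 1, 3 and 28.

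With equal weight to the 3 days, the mean effect of exposure on miR-21 was a log2 change of 0.51 ± 0.14 (SE; 95% interval 0.23 to 0.79), or 1.42-fold (1.18 to 1.72). The limma adjusted p was 0.0596 over 172 miRNAs, of which 0.581% passed. With slide as a fixed or a random block, which takes the shared slides into account, the effect was 0.52 in both fits and passed (limma adjusted p = 0.0345 and 0.0245). The share of all miRNAs that passed in these 2 fits is not given here. With the fixed block miR-21 did not pass alone, since its unadjusted limma p was 0.0016. Without a block, the 1 that passed was miR-689, with a log2 change of 1.32 and an adjusted p of 0.0333. The mean effect of miR-21 exceeded that of 98.3% of the tested miRNAs, whose median was -0.047. Without slide 1, the mean effect of miR-21 was 0.69, with an adjusted p of 0.000641 in limma. Over all alternative settings apart from leaving out single arrays it lay between 0.48 and 0.76, with adjusted p between 9.15e-06 and 0.986. No difference in the change of miR-21 between days passed the test of the difference itself. The change at day 28 minus that at day 1 was 0.45 ± 0.32 (SE, limma adjusted p = 0.925), that at day 28 minus that at day 3 was 0.58 ± 0.34 (adjusted p = 0.999), and that at day 3 minus that at day 1 was -0.14 ± 0.33 (adjusted p = 0.990). In each of these differences 0% of miRNAs passed, and 13, 3 and 4 had an unadjusted p under 0.05.

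Controls and exposed lungs of 1 day that lay on the same slide gave 15 pairs. At day 1 the exposed minus control differences were -0.56 on slide 1, 1.01 on slide 2, 0.24 on slide 4, 0.87 on slide 5, 0.38 on slide 7 and 0.50 on slide 8. At day 3 they were -1.02 on slide 1, 0.38 on slide 3, 0.71 on slide 4 and 0.86 on slide 9. At day 28 they were 1.18 on slide 2, -0.17 on slide 3, 0.55 on slide 5, 1.93 on slide 6 and 0.70 on slide 8. The exposed lung was higher in 12 of 15 pairs, and the 3 exceptions were both pairs of slide 1 and the pair of slide 3 that holds replicate 12 of day 28. The mean over the 15 pairs was 0.51 ± 0.71 (SD), with p = 0.0162 in an exact two-sided sign-flip permutation test, 0.0647 after adjustment over 4 such tests. Within days the exact p was 0.156, 0.625 and 0.125 at days 1, 3 and 28, where 6, 4 and 5 pairs allow no p below 0.0312, 0.125 and 0.0625. Without slide 1, 12 of 13 pairs were higher, with a mean of 0.70 ± 0.51 (SD) and an exact permutation p of 0.000488, 0.00195 after adjustment. The test without slide 1 was chosen after seeing the data, and it drops 2 of the 3 exceptions, so it is no independent support. With 1 mean per slide, a test chosen after seeing the data, 8 of 9 slides were positive, with a mean of 0.60. Its exact permutation p was 0.0391, and 0.156 after adjustment with the tests within days, so it did not pass. The mean difference was -0.79, 0.60, 0.59, 1.16 and 0.69 in the 2, 4, 4, 2 and 3 pairs of scan days 1 to 5.

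**Figure D2:**
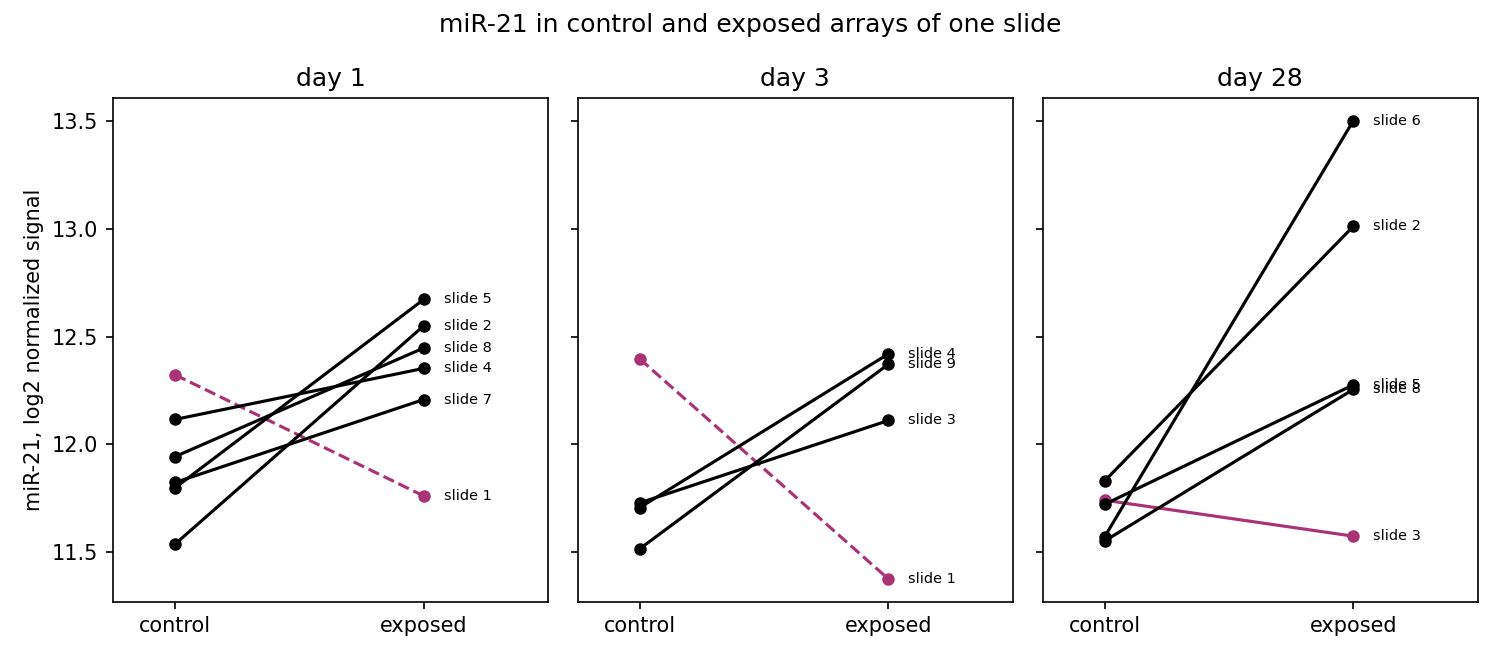
Log2 normalized signal of miR-21 in the control and the exposed lung of the same day on the same slide, 1 line per pair, with a panel per day. Black lines go up (12 of 15 pairs), purple lines go down (3 of 15), and the pairs of slide 1 are dashed.

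Ordered by mean, the 6 groups ran from exposed day 28 over exposed day 1, exposed day 3, control day 1 and control day 3 to control day 28. Neighbours in this order were 0.19, 0.26, 0.15, 0.12 and 0.13 apart, and none of these gaps passed an exact permutation test (p = 0.580, 0.333, 0.533, 0.470 and 0.429). Over all 15 pairs of groups, the smallest exact permutation p was 0.00433, for exposed day 1 above control day 28 by 0.66, and it was 0.0649 after adjustment over the 15 pairs. In control lungs, miR-21 at day 3 differed from day 1 by -0.12 ± 0.22 (SE, limma adjusted p = 0.933; 0% of 172 miRNAs passed, 9 with an unadjusted p under 0.05). At day 28 it differed from day 1 by -0.25 ± 0.22 (SE, limma adjusted p = 0.458), in a comparison where 6.98% of miRNAs passed. In exposed lungs it differed from day 1 by -0.26 ± 0.25 at day 3 and by 0.19 ± 0.23 at day 28 (SE, limma adjusted p = 0.978 and 0.753; 0% passed in either, with 3 and 27 at an unadjusted p under 0.05). With no scaling the control differences were 0.55 and 0.93, where the median over all miRNAs was 0.64 and 1.01. With scaling these medians were -0.028 and -0.17. miR-21 lay below the median both ways, which was fixed in advance, since scaling shifts all miRNAs of an array alike. It also lay below with the total gene signal, quantile normalization and the series table. With the normexp background correction miR-21 lay above the median, at -0.061 against -0.35 and at -0.15 against -0.64.

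The dimmer probe of miR-21 also had higher means in exposed than in control lungs at each day, with a wider spread. These means were 9.33 ± 0.77, 9.42 ± 0.42 and 9.50 ± 0.18 in controls and 10.20 ± 1.04, 9.81 ± 1.34 and 10.51 ± 0.82 in exposed lungs at days 1, 3 and 28 (SD, n = 6, 6, 6, 6, 4 and 5). The changes were 0.87 ± 0.44, 0.40 ± 0.49 and 1.01 ± 0.46 (SE), none of which passed in limma over 309 probes (adjusted p = 0.465, 0.996 and 0.672). With this probe the exposed lung was higher in 14 of 15 same-slide pairs, and in 13 of 13 without slide 1. On slide 1 the brighter probe exceeded the dimmer by 3.52 to 4.25 log2 units, against 1.65 to 2.65 on the 29 arrays of the other slides. Across arrays the 2 probes, which share the RNA and the scaling, correlated at r = 0.69 (n = 33), and at 0.92 without slide 1 (n = 29).

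The table of values that the authors deposited for the series gives miR-21 a single log2 value on each array, and the sources used here do not say how it was normalized. Its means were 10.80 ± 0.62, 10.56 ± 0.17 and 10.52 ± 0.11 in controls and 11.28 ± 0.71, 10.86 ± 0.98 and 11.57 ± 0.80 in exposed lungs at days 1, 3 and 28 (SD). In that table all 5 exposed lungs of day 28, at 10.73 to 12.79, were above the highest control, 10.72. The exact permutation test of day 28 gave 1.05, with an adjusted p of 0.0130, and over all settings of this test the adjusted p lay between 0.0130 and 0.610. Against the brighter probe the table correlated at r = 0.85 over 33 arrays, which share the RNA.

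Without scaling between arrays, the brightness of the array entered the level of miR-21, which then correlated with the log2 of the 75th percentile at r = 0.72 (n = 33). The change was then 1.07 at day 1 and 0.24 at day 28, while the median over all 172 miRNAs was 0.56 and -0.65. The change of miR-21 was also set against the median of all miRNAs, over 7 ways to scale or summarise the signal. It ranged from 0.39 to 0.82 at day 1, from 0.26 to 0.34 at day 3 and from 0.52 to 1.06 at day 28. These ways are not all separate checks. Unscaled signal, or a percentile taken from every probe, differs from the reported scaling by 1 shift per array. Both therefore had to repeat its values of 0.51, 0.31 and 0.89 at days 1, 3 and 28.

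**Figure D3:**
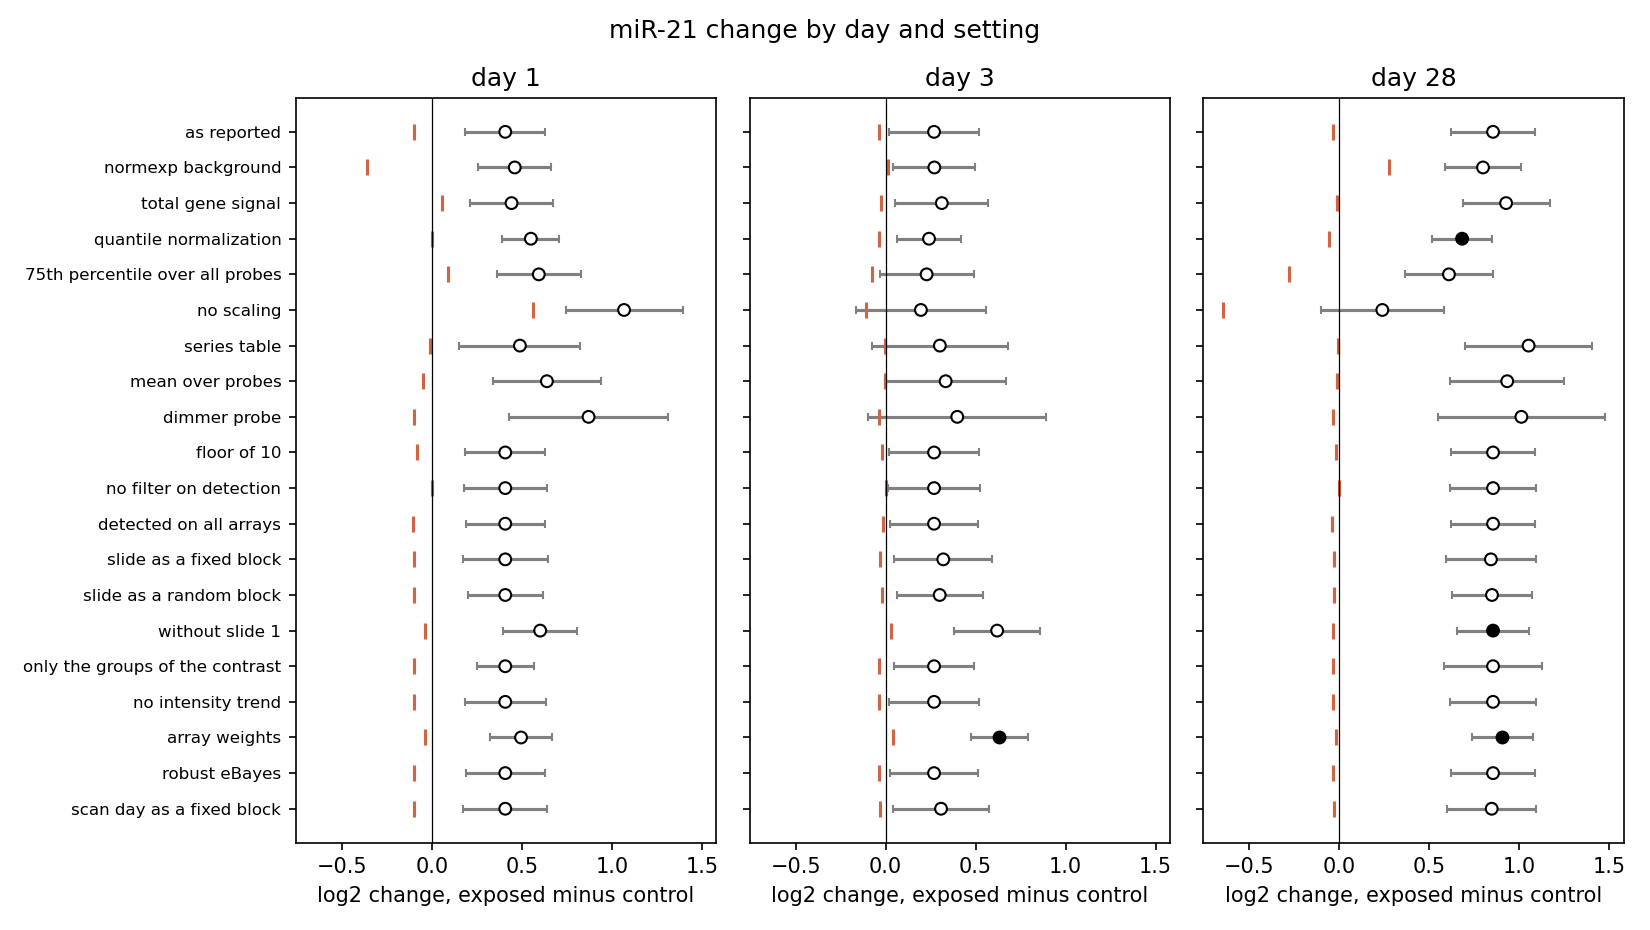
Log2 change of miR-21, exposed minus control, at days 1, 3 and 28 under the reported setting and each alternative. Circles are the change with its SE, filled where the limma adjusted p is under 0.05, and orange marks are the median change of all miRNAs in the same setting. All circles lie above 0, at 0.41 to 1.07, 0.20 to 0.63 and 0.24 to 1.05.

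By likeness of pattern over the 33 arrays, among the 93 other miRNAs above background on all arrays, miR-146b came first with r = 0.83, followed by miR-1224 with 0.69 and miR-146a with 0.61. miR-223, a miRNA of neutrophils and other myeloid cells, had 0.49 and the epithelial miR-200c 0.47. Next came miR-709 with 0.41, miR-141 with 0.38 and miR-720 with 0.38. The lowest were miR-126-3p with -0.37, miR-10a with -0.35 and miR-23a with -0.35, and the median over the 93 was -0.015. These are descriptions, since arrays share their scaling and 2 lungs of exposed day 28 lie far out. After subtracting each group's mean, the closest were miR-146b with 0.78, miR-301a with 0.63, miR-146a with 0.63, miR-200c with 0.61 and miR-1224 with 0.59. Over the 6 group means they were miR-146b with 0.93, miR-1224 with 0.86, miR-142-3p with 0.79, miR-146a with 0.63 and miR-709 with 0.63. Without the exposed lungs of day 28 (n = 28), miR-1224 led with 0.73, miR-223 had 0.72 and miR-146b 0.70, while miR-146a had 0.18. In that set miR-126-3p had 0.12, miR-23a 0.14 and miR-10a -0.10. The order also depended on the processing. In the series table miR-146a led with 0.78, before miR-142-3p with 0.75 and miR-146b with 0.73, and miR-1224 had 0.56. There miR-126-3p had 0.37, miR-23a 0.29 and miR-10a -0.39. Under quantile normalization miR-146b led with 0.77, and miR-126-3p, miR-23a and miR-10a had -0.40, -0.32 and -0.50.

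miR-146b and its close relative miR-146a carry a common seed and are known to target Irak1 and Traf6 of the pathway to NF-kB. They are shown because miR-146b had the highest likeness to miR-21 and miR-146a, the third, differs from it in few bases, and capitals again mark the seed.
mmu-miR-146a-5p: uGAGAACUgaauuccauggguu
mmu-miR-146b-5p: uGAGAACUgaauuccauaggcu
They differ by G18A and U21C, 2 of 22 bases, and lie at chr11:43374435-43374456 (minus strand) and chr19:46342790-46342811 (plus strand). miR-146b of exposed day 28 ran from 5.49 to 8.11 with a median of 6.96, against 5.59 to 5.97 in controls. The log2 change was 1.14 ± 0.34 (SE, limma adjusted p = 0.166). Exposed replicates 8 and 23, the highest 2 lungs in miR-21, were also the highest in miR-146b, and replicate 12 was the lowest exposed lung of that day in both. In miR-146a, exposed lungs of day 28 ran from 7.92 to 9.27 against 8.03 to 8.36 in controls, a change of 0.48 ± 0.18 (SE, limma adjusted p = 0.570). At day 1 the changes of miR-146b and miR-146a were 0.33 and -0.060, and at day 3 they were 0.27 and -0.075.

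**Figure D4:**
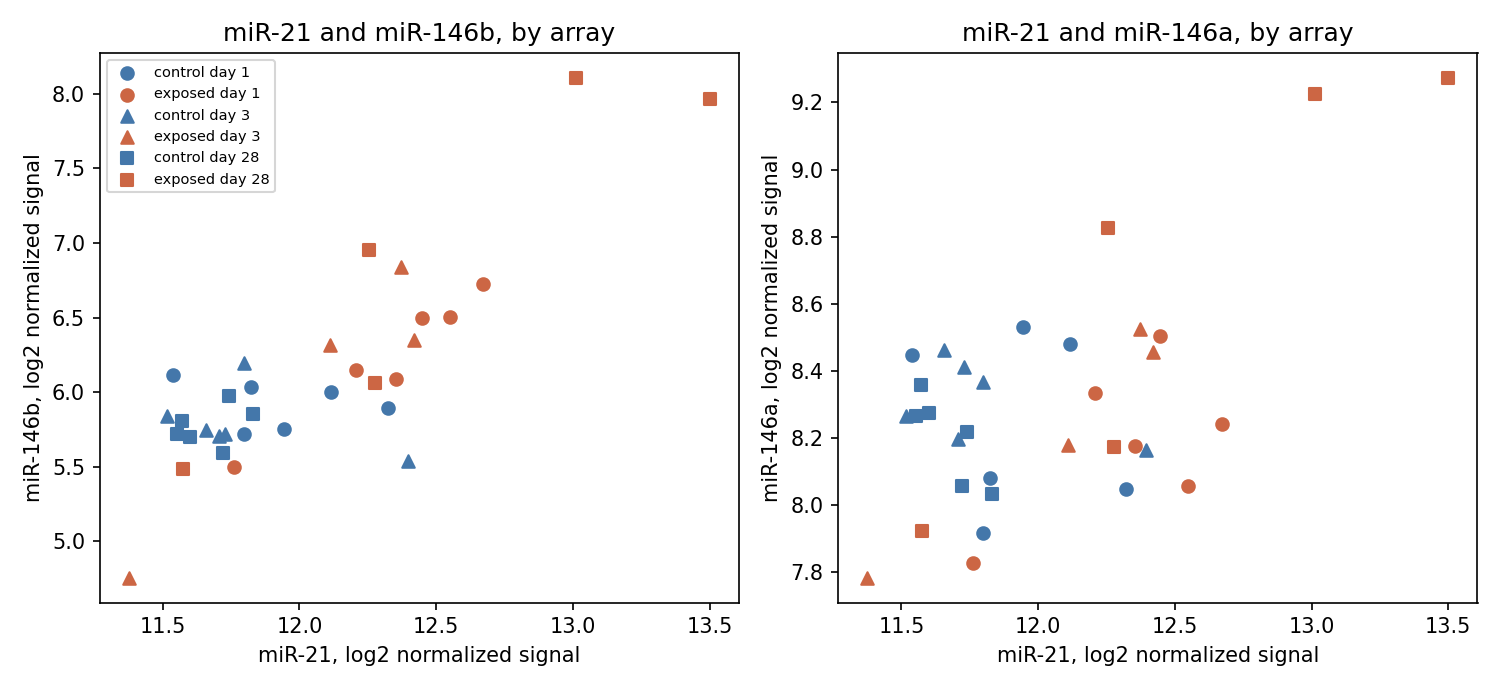
Log2 normalized signal of miR-21 (horizontal) against miR-146b (left) and miR-146a (right) on the 33 arrays, coloured by exposure and shaped by day. The 2 exposed lungs of day 28 with miR-21 at 13.01 and 13.50 are the highest in both.

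The other miRNAs of a list known to be induced in inflammation were examined beside miR-21. Of its 12 members, miR-21* among them, 6 passed the detection filter, and 0 of 6 passed in limma at any day. At day 1, miR-155 and miR-222 passed under quantile normalization, under no scaling and under the percentile over all probes, and miR-155 also with the total gene signal, and at day 28 miR-146b passed with normexp background and miR-155 with a floor of 10. The median change of all 172 miRNAs was 0.56 at day 1 with no scaling and 0.28 at day 28 with normexp background. The share of all miRNAs that passed in these settings is not given here. At day 1, 3 were higher and 3 lower, with a median of 0.14 against -0.097 over all 172 miRNAs, or -0.022 where the 2 members below background in controls stand at no change. At day 3, 4 were higher (median 0.18 against -0.036) and at day 28, 3 were higher (median 0.20 against -0.034). miR-155, induced in activated macrophages, was above background on 4 of 6 exposed and 0 of 6 control arrays at day 1 (limma adjusted p = 0.212) and on 0 of 4 exposed and 1 of 6 control arrays at day 3, and its levels allow no fold at these days. At day 28 it was above background on 4 of 5 exposed and 4 of 6 control arrays, with a change of 0.75 ± 0.31 (SE, limma adjusted p = 0.570). miR-222 was above background on 4 of 6 exposed and 0 of 6 control arrays at day 1 (limma adjusted p = 0.118), which allows no fold. It had changes of 0.49 ± 0.35 and -0.13 ± 0.33 (SE) at days 3 and 28, where many of its values were not above background. At day 3 it was above background on 2 of 4 exposed and 2 of 6 control arrays, and at day 28 on 2 of 5 and 5 of 6. Array brightness differed between these groups. The group medians of the 75th percentile were 365, 635 and 985 in controls and 666, 625 and 481 in exposed arrays at days 1, 3 and 28. The part of brightness in the detection counts of miR-155 and miR-222 was not tested. The neighbour of miR-222, miR-221, had -0.045, 0.085 and -0.092 at the 3 days. miR-449a, a miRNA of ciliated cells, had -0.42, 0.55 and -0.27 at days 1, 3 and 28. Of the 6 tested members, miR-146b was the 1 with a positive change at all 3 days, as miR-21 had, though none of these changes passed.

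miR-21 is also known as raised in lung fibrosis. Of 7 other miRNAs listed as raised in lung fibrosis models, 5 were tested and 0 passed, with median changes of -0.13, 0.034 and -0.057 at days 1, 3 and 28. Of 10 listed as lowered in such models, among them the collagen-repressing miR-29 family, 10 were tested and 0 passed, with medians of 0.040, 0.0068 and -0.030. The median over all 172 miRNAs was -0.097, -0.036 and -0.034 at these days.

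Markers of cell types were set beside miR-21, since the lungs were whole tissue. All 3 myeloid markers (miR-223, miR-142-3p and miR-142-5p) were tested, 0 passed, and their median change was 0.51, 0.016 and 0.15 at days 1, 3 and 28. The log2 of their summed signal ran from 9.16 to 10.82 in controls and from 9.76 to 11.17 in exposed lungs at day 1. The ranges were 9.84 to 10.64 (controls) against 9.92 to 10.57 (exposed) at day 3 and 10.04 to 10.60 against 9.96 to 11.03 at day 28. miR-223 had the smallest p of day 1, a change of 0.82 ± 0.21 (SE, limma adjusted p = 0.0994), and changes of 0.20 and 0.12 at days 3 and 28. At day 28, where the change of miR-21 had its highest value, the median of the 3 erythroid markers was -0.20, that of 7 tested epithelial markers -0.042, that of the 2 endothelial 0.031, that of the 3 fibroblast 0.022 and that of the 2 tested lymphoid markers 0.14. The 1 tested smooth muscle marker, miR-143, had 0.022, and the 3 striated muscle markers a median of -1.35. miR-133a and miR-133b were above background on 0 of 5 exposed arrays of that day, the striated muscle median was -0.66 with these 2 at their bound or at no change, and in the series table it was -0.26. In the other days these medians were -0.022 and 0.46 (erythroid), 0.17 and -0.078 (epithelial), 0.15 and 0.21 (endothelial), -0.13 and 0.034 (fibroblast), -0.092 and -0.12 (lymphoid), 0.19 and 0.017 (smooth muscle) and 0.64 and -1.35 (striated muscle) at days 1 and 3. miR-203 was below background in both groups of day 1, and the epithelial median was 0 there with that marker at no change. miR-133a was above background on 0 of 4 exposed arrays of day 3. The part of array brightness in these detection counts was not tested. No member of these marker lists passed in the reported fit, while miR-223 passed at day 1 under quantile normalization, no scaling, the percentile over all probes and the test over miRNAs detected on all arrays. Their part in the level of miR-21 was not tested. The epithelial marker miR-205 was above background on 0 arrays, and the lymphoid miR-150 on at most 1 array of a group.

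**Figure D5:**
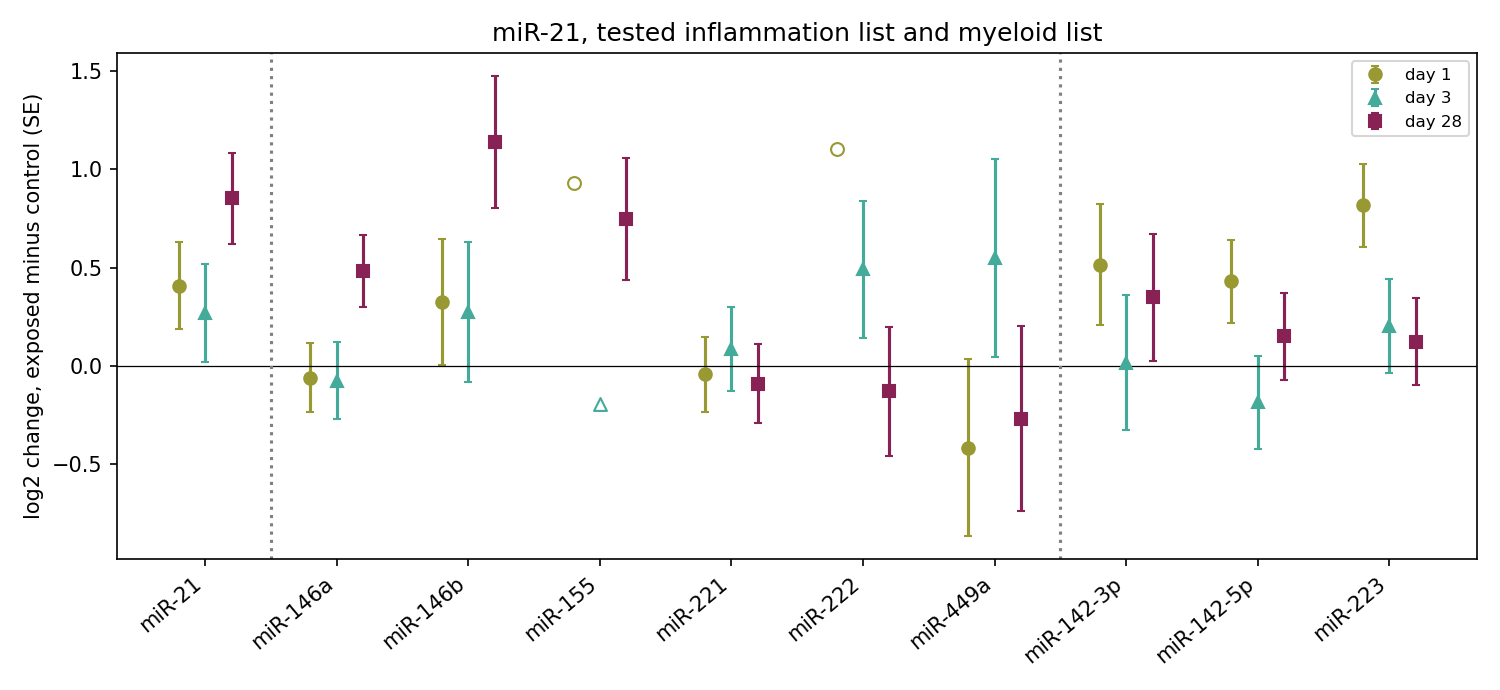
Log2 change with SE, exposed minus control, of miR-21, of the 6 tested members of the inflammation list and of the 3 myeloid markers at days 1, 3 and 28. Open markers are fitted values where 1 of the groups was below background on every array, which give no fold. At day 28 miR-21 lies at 0.85 and miR-146b at 1.14, while miR-223 lies at 0.82 at day 1 and at 0.12 at day 28.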

How the data were processed

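Per the file headers, the deposited scanner files hold spot intensity, extracted with Feature Extraction 10.7.3.1, with background already subtracted in the processed signal, as the file headers record. RNA was enriched for small RNA and labelled with Cy3, per the labels' protocols. The authors also deposited a table of log2 values for the series, and the sources used here do not say how it was normalized. Its columns correlated at 0.991 to 1.00 with the mean log2 median signal per miRNA and had medians of 5.41 to 5.43, so scale and direction are known and centring is not. It was used as an alternative.

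Each array holds 13715 spots, 13000 of them not controls, of which 2.30% were left out by outlier flags. The mean processed signal per probe was divided by the array's 75th percentile over 156 probes detected on all 33 arrays, floored at 1 and log2 transformed. A member below background on every array of a group has only a bound, or no fold where the bound is under 1. Each miRNA was represented by the probe of highest mean. A miRNA was detected where any of its probes had most of its unflagged spots well above background. It was tested where detected on at least 4 arrays of a group (172 miRNAs, 171 of mouse). limma 3.58.1 (R 4.3.3, package data.table, version 1.17.8) fitted 6 group means with an intensity trend, and p-values were two-sided and Benjamini-Hochberg adjusted with a threshold of 0.05. Exact permutation tests used scipy 1.17.1 (Python 3.11.15, pandas 2.3.3). The number of arrays limits the precision. For normexp (offset 50) the files gave the median signal in place of the mean.

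miR-21 and the lists (induced in inflammation, raised or lowered in lung fibrosis models, and the cell type markers) were chosen with earlier results of these data known. miRNAs were named by rule: both arms of miR-21, list members, the 8 highest and 3 lowest in likeness, the 5 highest by the other likeness measures, and those with a smaller p than miR-21, of which not all are described. Replicate numbers run through the series and pair no samples.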

Additional observations from a re-analysis of the deposited data

Results flagged for a closer look

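Sets of values were examined over the measures of miR-21, the levels of miR-146b and miR-146a, and the same-slide pairs of a day. Of these 45 sets, 8 held a value far from the others, where chance gives about 1 in 20. All 8 values came from arrays in the measures of miR-21, and 6 of the 8 lie on slide 1. The measures are not independent, since both probes and the series table read the same RNA. With the brighter probe, control day 3 replicate 2 on slide 1 stood at 12.40 against 11.52 to 11.80 in the other 5. Exposed day 1 replicate 3 on slide 1 stood at 8.10 with the dimmer probe (others 10.37 to 10.82) and at 9.89 in the series table (others 11.31 to 11.89). The log2 gap between the probes was 4.25 in control day 1 replicate 1 (others 1.79 to 2.65) and 3.66 in exposed day 1 replicate 3 (others 1.67 to 1.99), both on slide 1. The SD over spots was 0.153 in that exposed array (others 0.080 to 0.105). Control day 28 replicate 6 stood at 10.72 in the series table (others 10.43 to 10.53). Exposed day 28 replicate 20 had an SD over spots of 0.375 (others 0.064 to 0.126), with 6 spots used.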

How the results depend on the processing

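The change of miR-21 kept its positive direction at each day, in the mean over days and in the same-slide pairs under every alternative run. The mean effect passed in limma under normexp background (0.51, adjusted p = 0.0391), the total gene signal (0.56, 0.0340), quantile normalization (0.49, 0.00303), slide as a fixed (0.52, 0.0345) or random block (0.52, 0.0245), without slide 1 (0.69, 0.000641), with array weights (0.68, 9.15e-06) and with scan day as a block (0.52, 0.0357), the last chosen after seeing the data. Day 28 passed under quantile normalization (0.68, limma adjusted p = 0.0484), without slide 1 (0.85, 0.0350) and with array weights (0.91, 0.000842), and day 3 with array weights (0.63, 0.0341). The share of all miRNAs that passed in each of these settings is not given here, and the cause was not tested. Single arrays left out gave 0.43 to 0.59 for the mean effect, which passed without control day 1 replicate 1, control day 3 replicate 2, exposed day 1 replicate 3, exposed day 3 replicate 4 or exposed day 28 replicate 12. They gave 0.61 to 1.09 for day 28.

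The exact permutation tests passed at day 1 under normexp (0.46, adjusted p = 0.0455), quantile normalization (0.55, 0.0325) and no scaling (1.07, 0.0195), and at day 28 under normexp (0.80, 0.0455), quantile normalization (0.68, 0.0325) and the series table (1.05, 0.0130). With no scaling the median change of all miRNAs at day 1 was 0.56. Relative to that median miR-21 changed by 0.51, as in the reported setting. Single arrays left out gave 0.33 to 0.52 at day 1, which passed without control replicate 1 or exposed replicate 3, and 0.61 to 1.09 at day 28, which passed without exposed replicate 12. The 15 pairs passed in the exact permutation test under normexp (0.50, adjusted p = 0.0439), the total gene signal (0.57, 0.0210), quantile normalization (0.52, 0.0115), the percentile over all probes (0.44, 0.0457), the series table (0.65, 0.0405), the mean over probes (0.67, 0.0137) and the dimmer probe (0.84, 0.00488), and without slide 1 (0.70, 0.00195), the last chosen after seeing the data.

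Differences between days turned sign, some of them in settings that shift all miRNAs. Control day 3 minus day 1 was 0.16 under the percentile over all probes, 0.55 with no scaling and 0.087 with the dimmer probe, and control day 28 minus day 1 was 0.18, 0.93 and 0.17. The medians of all miRNAs in these settings were 0.25, 0.64 and -0.025, and 0.26, 1.01 and -0.16, so among these settings miR-21 lay above the median with the dimmer probe alone. Without a turn of sign, miR-21 also lay above the median under normexp background in both control differences. With the mean over probes it did so for control day 28 minus day 1, at -0.040 against -0.11. The change of day 28 minus that of day 1 was -0.83 with no scaling, where the median of all miRNAs was -1.25, against 0.45 and a median of 0.027 as reported. The change of day 3 minus that of day 1 was 0.017 without slide 1 and 0.14 with array weights, and -0.26 to 0.092 with single arrays left out. Exposed day 28 minus day 1 was -0.053 to 0.43 with single arrays left out.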
